A study of Mus musculus with 2 samples.

Results

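The cells described here are dendritic cells carrying transcripts of Ccr7 and its companion maturation genes, taken from ID8 mouse ovarian tumours. They were chosen by transcripts in single barcodes: a sum of at least 4 UMIs (unique molecular identifiers, each standing for 1 captured RNA molecule) over Ccr7, Fscn1, Ccl22, Cacnb3 and Il4i1, from at least 2 of these genes, with at least 2 UMIs from Ccr7 and Fscn1 together. The rule further asked for at least 3 UMIs of the MHC class II gene H2-Ab1, at most 3 of the macrophage genes C1qa, C1qb and C1qc, none of the lymphocyte genes Cd3e and Cd79a, and at most 1 of the keratin gene Krt18. It found 176 of 27732 barcodes, 100 of 12824 in the primary and 76 of 14908 in the chemoresistant library. The rule used measured expression, so the levels of its own genes are a description.

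The study profiled solid tumours of the ID8 model, a line derived from the ovarian surface epithelium of C57BL/6 mice, by droplet single-cell RNA sequencing with 3' chemistry. The primary library came from treatment naïve tumours and the chemoresistant library from tumours given cisplatin, a platinum drug that crosslinks DNA. Tumour pieces were digested with collagenase, red cells were lysed, and tumour suspensions were pooled. The number of tumours in each pool, the age of the mice and the dose are not stated in the labels. With 1 library a group, the spread between tumours was not measured, so no difference between the libraries has a replicate check or a test, and 95% intervals below cover counting error only.

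Dendritic cells take up antigen in tissues and present it to T cells. When they mature, whether after a danger signal or in the course of tissue homeostasis, they raise the chemokine receptor CCR7, which responds to CCL19 and CCL21 along lymphatic vessels, and the actin-bundling protein fascin, encoded by Fscn1, which shapes their long dendrites. In tumours such cells carry costimulatory and inhibitory ligands side by side, and both type 1 conventional dendritic cells (cDC1, which cross-present antigen to CD8 T cells) and type 2 conventional dendritic cells (cDC2, which mainly prime CD4 T cells) can enter this state.

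Comparison classes passed the same gates without being members. The 313 type 1 cells (168 primary and 145 chemoresistant) had at least 2 UMIs of Xcr1 and Clec9a, and the 272 type 2 cells (165 and 107) had at least 2 UMIs of Cd209a and none of Xcr1 or Clec9a. UMIs were summed over the cells of a class in each library and given per 1e6 UMIs of that sum (CPM). Depth differed: the median Ccr7 dendritic cell held 10704 UMIs in the primary and 4588 in the chemoresistant library, and their sums were 1176158 and 446608 UMIs. Of the members, 16 chemoresistant cells and 0 primary cells held under 3000 UMIs. The libraries shared 44 barcode sequences, none of them a member's.

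Among the members, 9 barcodes carried transcripts of other cell types as well, by limits chosen after their values were seen. In the primary library 6 held at least 10 UMIs of 7 fibroblast genes, 1 held at least 20 of the globins and 1 at least 10 of the keratins. The single chemoresistant one held 46290 UMIs, the most of any member, with 451 fibroblast UMIs. Ccr7 was at 0 in 7 of the 9, and so was the leukocyte gene Ptprc. They made up 15.2% of the primary members' UMIs and 10.4% of the chemoresistant ones. Values below are over all 176 cells, and those over the other 167 stand beside many, but not all, of the results that they move. Doublets were kept, and 11 primary and 10 chemoresistant members are absent when barcodes with the highest doublet scores are removed.

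The label fits the genes outside the rule. Relb, the partner subunit of noncanonical NF-kB signalling, stood at 716 CPM (95% interval 668 to 766) in primary and at 555 CPM (488 to 629) in chemoresistant Ccr7 dendritic cells, against 47.4 and 52.0 CPM in type 1 and 86.7 and 27.1 CPM in type 2 cells. Samsn1, an adaptor of activated haematopoietic cells, was at 1034 and 811 CPM, against at most 87.3 CPM in the other classes. Tmem123, a surface mucin-like protein, was at 1197 and 1081 CPM, against at most 91.5 CPM. In each case both libraries were high in Ccr7 dendritic cells and both were low in the other classes. A UMI of Relb was seen in 91 of 92 primary and 73 of 75 chemoresistant cells once the 9 barcodes were set aside.

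**Figure D1:**
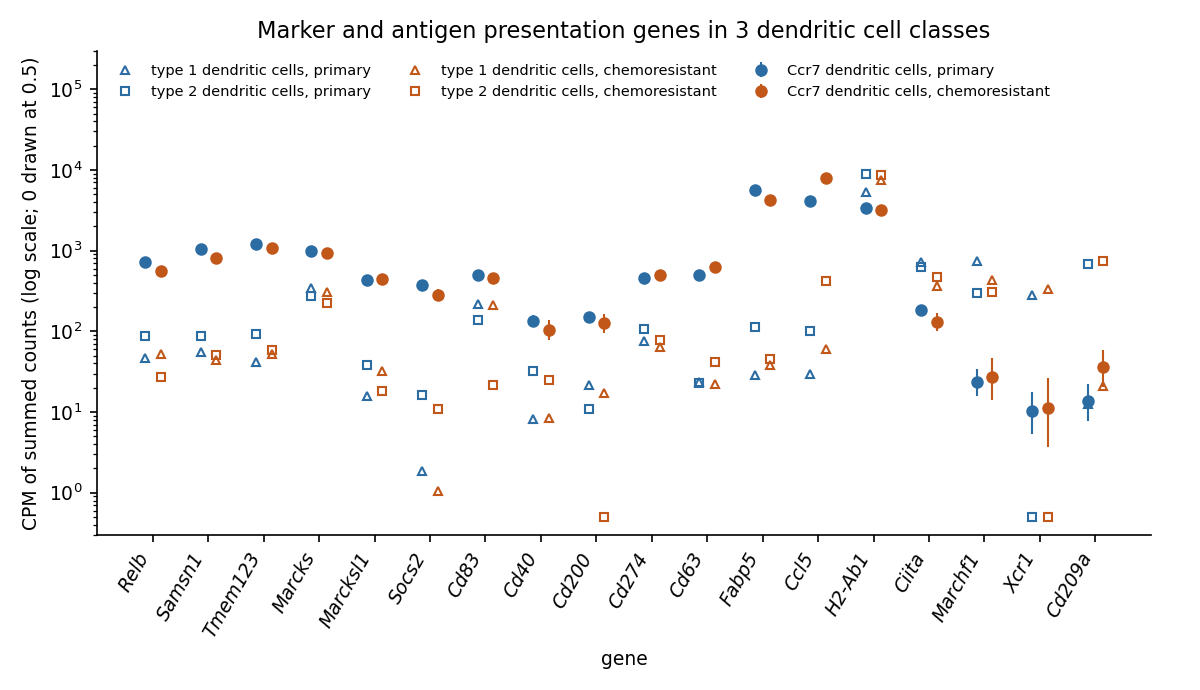
CPM on a log axis (a value of 0 is drawn at 0.5) of 18 genes in Ccr7 dendritic cells (filled circles, with exact Poisson 95% intervals), type 1 cells (triangles) and type 2 cells (squares), in the primary (blue) and chemoresistant (orange) library. The circles of Relb, Samsn1, Tmem123, Fabp5 and Ccl5 lie above the triangles and squares, those of Ciita and Marchf1 lie below them, and Xcr1 and Cd209a are high only in the class they define.

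The genes of the rule set the scale of the state. Ccr7 itself was at 718 CPM (670 to 768) in primary and 728 CPM (651 to 811) in chemoresistant members, and at most 7.21 CPM in the other classes. Fscn1 was at 714 CPM (667 to 764) and 849 CPM (765 to 939). Il4i1, a secreted enzyme that degrades aromatic amino acids, was at 544 and 390 CPM, and Cacnb3, a calcium channel subunit, at 455 and 360 CPM. The median member held 5 UMIs of Ccr7 in the primary and 3 in the chemoresistant library, and the richest cells held 41 and 39. At the threshold, 2 cells a library with a marker sum of 3 stayed outside, and 3 primary and 5 chemoresistant cells with a sum of 4 came inside. The median sums were 28.5 and 13.0, so most members lay far from it.

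The share of Ccr7 dendritic cells among dendritic cells was alike in both libraries. It was 23.1% (Clopper-Pearson 19.2 to 27.4) of 433 primary and 23.2% (18.7 to 28.1) of 328 chemoresistant dendritic cells. Of all barcodes, the share was 0.780% (0.635 to 0.948) for primary and 0.510% (0.402 to 0.638) for chemoresistant tumours. That gap shrank to 0.613% (0.469 to 0.787) against 0.508% (0.372 to 0.677) when every barcode was thinned to 3000 UMIs and shallower ones were left out. The intervals overlapped at their edges before thinning and more widely after it. Type 1 cells took 1.31% (1.12 to 1.52) and 0.973% (0.821 to 1.14) of barcodes, with intervals that overlap. Type 2 cells took 1.29% and 0.718%, with intervals apart. Thinning reversed this: type 1 cells then took 1.41% (1.19 to 1.66) and 0.950% (0.761 to 1.17), with intervals apart. The thinned type 2 shares were 1.12% (0.919 to 1.34) and 0.796% (0.623 to 1.00), with intervals that overlap. Each class was a smaller part of the chemoresistant library by its value. That library held 1950 tumour cells, against 278 in the primary. Of barcodes outside the tumour class, Ccr7 dendritic cells took 0.797% (0.649 to 0.969) and 0.587% (0.462 to 0.734). Type 1 cells took 1.34% (1.15 to 1.56) and 1.12% (0.945 to 1.32) of these, and both pairs of intervals overlapped. Type 2 cells took 1.32% and 0.826%, with intervals apart, but after thinning 1.12% (0.924 to 1.35) and 0.838% (0.656 to 1.05), with intervals that overlap. Which cells the digestion released in each pool was not measured.

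Against the conventional classes, Ccr7 dendritic cells differed over much of the transcriptome. A gene was called higher or lower when the ratio of CPM, with 20 CPM added to both sides, passed 1.5-fold the same way in both libraries, among genes with a mean of at least 20 CPM. Of 6100 genes set against type 2 cells, 641 were higher (10.5%) and 764 lower (12.5%), and of 6053 set against type 1 cells, 700 were higher (11.6%) and 699 lower (11.5%). Without the 9 barcodes, and without 5 type 2 and 3 type 1 barcodes that met the same limits, 569 of 5894 were higher (9.65%) and 829 lower (14.1%) than in type 2 cells, and 634 of 5882 higher (10.8%) and 746 lower (12.7%) than in type 1 cells. These shares are the background for the counts that follow. Ratios are given on the log2 scale, with the primary library first. Since the cells were picked by some of these genes, the counts describe the class and carry no test.

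The migration and maturation list of 28 genes, which includes the 5 genes of the rule, was higher almost throughout. All 26 of its genes with enough counts were higher than in type 2 cells, with median log2 ratios of 3.12 and 2.93, and 25 of 26 were higher than in type 1 cells, with medians of 2.96 and 2.68. Over all genes those medians were -0.10 and -0.05 against type 2 and -0.11 and -0.02 against type 1. Tmcc3, an endoplasmic reticulum protein, stood at 1260 CPM (1197 to 1326) and 705 CPM (630 to 788), against 59.0 and 34.3 CPM in type 2 cells. Socs2, a feedback inhibitor of cytokine receptors, was at 372 and 282 CPM, against 16.3 and 10.8 CPM. Marcksl1, a membrane and actin regulator, was at 432 and 450 CPM, against at most 37.9 CPM. Its relative Marcks differed less, with 976 and 927 CPM against 276 and 225 CPM.

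**Figure D2:**
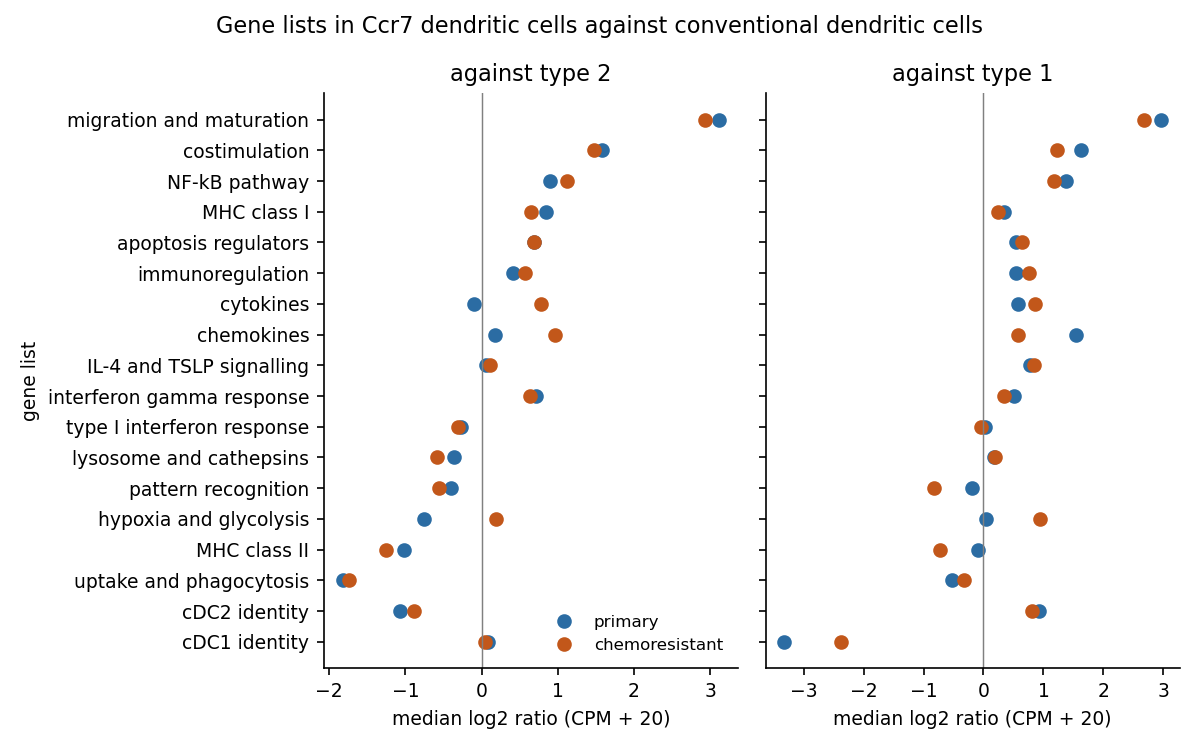
Median log2 ratio of CPM plus 20 of the tested genes of 18 gene lists in Ccr7 dendritic cells over type 2 cells (left) and type 1 cells (right), for the primary (blue) and chemoresistant (orange) library. Migration and maturation lies near 3 in both panels, MHC class II lies below 0, and the cDC1 identity list lies furthest to the left in the panel against type 1 cells.

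Of the 15 costimulation genes, 8 of 11 tested were higher than in type 2 cells and 8 of 10 higher than in type 1 cells, with 1 lower in each. Cd40, the receptor through which helper T cells license dendritic cells, was at 135 CPM (115 to 158) and 105 CPM (77.3 to 140), against 31.9 and 25.2 CPM in type 2 and 8.11 and 8.48 CPM in type 1 cells. Cd83, a maturation marker that stabilises surface MHC class II, was at 500 and 457 CPM, against 137 and 21.6 CPM in type 2 and 218 and 210 CPM in type 1 cells. Both genes were higher than in either class in both libraries. Cd80, a ligand of CD28 and CTLA-4, was at 133 and 89.6 CPM, against 74.1 and 23.4 CPM in type 2 cells, log2 ratios of 0.71 and 1.33.

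Cd86, the other CD28 ligand, did not follow. It was at 310 CPM (279 to 344) in primary and 190 CPM (152 to 235) in chemoresistant Ccr7 dendritic cells, close to the 231 and 153 CPM of type 2 and the 212 and 240 CPM of type 1 cells. The 5 cells richest in it held 54.9% of its primary UMIs. Ly75, the antigen-uptake receptor DEC-205, was at 276 and 378 CPM, against 9.64 and 16.2 CPM in type 2 and 79.3 and 81.6 CPM in type 1 cells. The receptors Tnfrsf9 (4-1BB, at 132 and 141 CPM) and Tnfrsf4 (OX40, at 96.9 and 103 CPM), better known from activated T cells, were at most 4.22 CPM in both conventional classes. Cd48, a ligand of CD2 and CD244, was the gene lower than in both, with 69.7 and 53.7 CPM against 198 and 189 CPM in type 2 cells.

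Inhibitory ligands were higher beside them. Of the immunoregulation list of 21 genes, 7 of 16 tested were higher and 4 lower than in type 2 cells, and 7 of 15 higher and 4 lower than in type 1 cells. Il4i1, a gene of the rule, is among the higher ones in both counts. Cd274, which encodes PD-L1, was at 458 CPM (420 to 499) and 502 CPM (438 to 572), against 108 and 77.5 CPM in type 2 and 75.5 and 64.7 CPM in type 1 cells. Its UMIs were spread widely, with 82 of 92 primary and 58 of 75 chemoresistant cells holding at least 1. Pdcd1lg2, which encodes the second PD-1 ligand, was at 145 and 105 CPM, against 47.6 and 5.41 CPM in type 2 cells. Cd200, which signals to the inhibitory receptor CD200R1 on myeloid cells, was at 151 and 128 CPM and at most 21.8 CPM in the other classes.

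Aldh1a2, the retinaldehyde dehydrogenase that makes retinoic acid, was at 203 CPM (178 to 231) and 159 CPM (124 to 201) in Ccr7 dendritic cells, against 30.7 and 12.6 CPM in type 2 cells. Fas, the death receptor, was at 55.3 and 69.4 CPM, against at most 3.61 CPM in the conventional classes. The genes lower than in type 2 cells were receptors and a cytokine rather than these ligands: Havcr2 (TIM-3) at 24.7 and 20.2 CPM, Cd200r1 at 16.2 and 15.7 CPM, Vsir (VISTA) at 15.3 and 17.9 CPM, and Tgfb1 at 41.7 and 33.6 CPM. Ido1, which degrades tryptophan, had no UMI in primary members, which allows up to 2.55 CPM, and 2 UMIs, 4.48 CPM, in chemoresistant ones.

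Of 16 chemokine genes, 4 of 11 tested were higher and 2 lower than in type 2 cells, and 5 of 11 were higher and 0 lower than in type 1 cells. Both counts of higher genes include Ccl22, a gene of the rule. Ccl5, which recruits T cells, was at 4071 CPM (3956 to 4188) in primary and 7841 CPM (7584 to 8105) in chemoresistant members, against 102 and 422 CPM in type 2 and 30.0 and 60.4 CPM in type 1 cells. It was found in 89 of 92 primary and 72 of 75 chemoresistant cells. After thinning to 3000 UMIs a Ccl5 UMI was seen in 88.0% and 91.5% of them, against 4.32% and 4.02% of tumour cells, the class taken as background for free RNA.

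Ccl22, a rule gene whose product attracts CCR4-bearing regulatory T cells, was at 299 CPM (269 to 332) in primary members, at 640 CPM (568 to 719) in chemoresistant ones, and at most 33.9 CPM in the other classes. Ccl17, the other CCR4 ligand, was at 406 CPM (370 to 444) and 826 CPM (744 to 915). In type 2 cells Ccl17 was at 317 CPM in the primary but 41.5 CPM in the chemoresistant library, so the contrast between the classes lay mostly in the latter. Both chemokines were concentrated in few cells: the 5 richest held 58.0% and 63.4% of Ccl17 and 38.3% and 56.3% of Ccl22 UMIs. They tended to lie in the same cells, since a Ccl22 UMI was found in 79.5% of the 44 primary cells with Ccl17 and 33.3% of those without, and in 75.9% of 29 and 39.1% in the chemoresistant library. Depth differs among cells and was not held fixed in these shares.

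**Figure D3:**
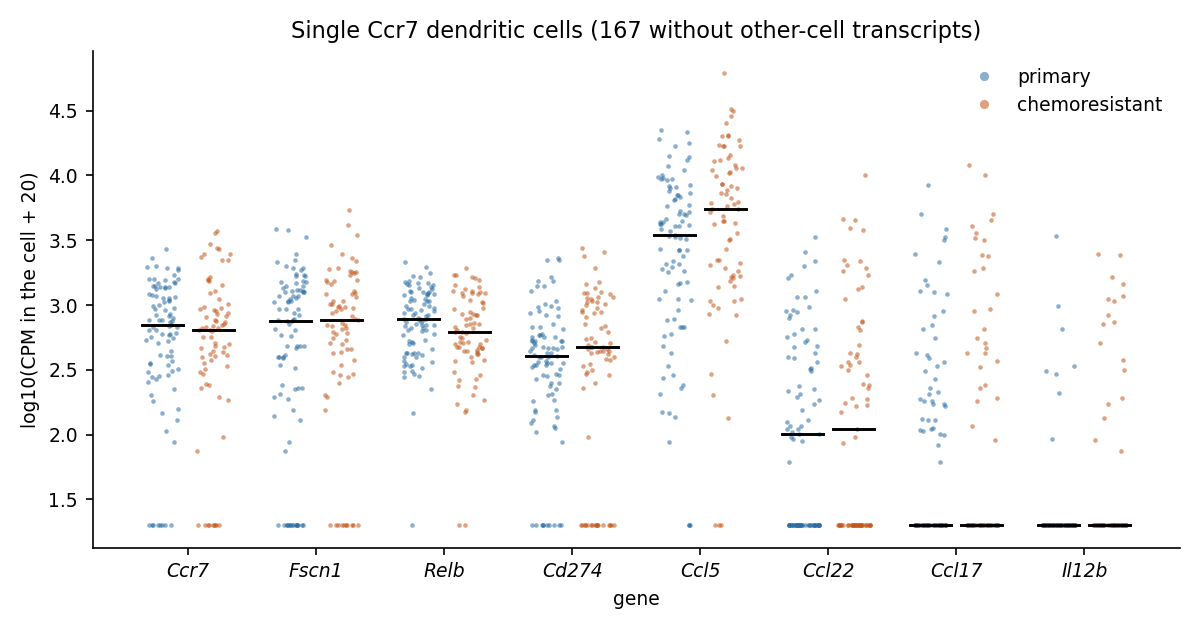
Log10 of CPM within the cell plus 20, for each of the 167 Ccr7 dendritic cells without the 9 barcodes carrying other transcripts (blue primary, orange chemoresistant; the black line is the median). Relb, Cd274 and Ccl5 are spread through nearly all cells or most of them, while Ccl17 and Il12b have medians at the floor and a few very high cells.

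Cxcl16, a transmembrane chemokine for CXCR6-bearing T cells, was at 457 CPM (419 to 497) and 524 CPM (459 to 596), against 51.2 and 34.3 CPM in type 2 and 77.4 and 92.2 CPM in type 1 cells. The myeloid chemokines Ccl6 (102 and 94.0 CPM) and Ccl9 (83.3 and 87.3 CPM) were the lower ones against type 2 cells, where Ccl6 was at 408 and 644 CPM and Ccl9 at 215 and 451 CPM. Of the chemokine receptor list of 14 genes, 2 of 5 tested were higher and 3 lower than in type 2 cells, and 2 of 7 higher and 4 lower than in type 1 cells. The higher ones include Ccr7, a gene of the rule, and those lower than in type 1 cells include Xcr1, which defines that class. Ccr2, which draws cells out of the blood, was at 18.7 and 56.0 CPM against 535 and 498 CPM in type 2 cells, and Ccr1 at 17.9 and 15.7 CPM against 136 and 123 CPM. Gpr183, the oxysterol receptor that guides dendritic cells within lymphoid tissue, was higher than in both classes, at 424 and 184 CPM.

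Of the cytokines, Il12b stood out by its distribution. The gene encodes the p40 chain shared by IL-12 and IL-23, and was at 98.6 CPM (81.5 to 118) in primary and 190 CPM (152 to 235) in chemoresistant members. Type 2 cells held no UMI of it, which allows up to 1.81 and 5.41 CPM, and type 1 cells were at 1.87 and 52.0 CPM. Il12b was seen in 8 of 92 primary and 18 of 75 chemoresistant cells, and after thinning in 5.43% and 20.3%. The 5 richest cells held 93.9% of the primary UMIs, so the primary level rests on very few cells. Il12a, which completes IL-12, was at 0.850 CPM in primary members, 1 UMI, and had none in chemoresistant members, while Il23a had none in either.

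Il15, which sustains natural killer and memory CD8 T cells, was at 64.6 CPM (50.9 to 80.9) and 107 CPM (79.2 to 142), and its presenting receptor chain Il15ra at 119 and 134 CPM. Il15ra was at most 15.9 CPM in both conventional classes, and Il15 at most 36.8 CPM. Il1b, the inflammatory cytokine, was at 332 CPM (299 to 366) and 188 CPM (150 to 233), against 132 and 94.4 CPM in type 1 and 483 and 101 CPM in type 2 cells. It thus lay between the classes in the primary library and above both in the chemoresistant one. Its 5 richest cells held 58.7% and 65.5% of the UMIs.

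The NF-kB list of 22 genes was higher broadly. Of 21 tested, 12 were higher and 1 lower than in type 2 cells, and 15 higher and 0 lower than in type 1 cells. The contrast was uneven across subunits: Relb had log2 ratios of 2.79 and 3.61 over type 2 cells, whereas Nfkb1, the p105/p50 subunit, was at 444 and 334 CPM against 400 and 254 CPM. Rel, encoding c-Rel, was at 838 and 721 CPM against 306 and 133 CPM. Traf1, an adaptor of TNF receptors, was at 596 CPM (553 to 642) and 378 CPM (324 to 440), against 128 and 37.9 CPM. Birc2, an inhibitor of apoptosis protein that acts with Traf3 to restrain the noncanonical pathway, was at 491 and 343 CPM, against 42.2 and 32.5 CPM. The inhibitor Nfkbia, itself a textbook target of the pathway, was at 735 CPM (687 to 786) and 437 CPM (377 to 502), against 279 and 59.5 CPM. Tnip3, a partner of the inhibitor Tnfaip3, was the gene lower than in type 2 cells over all members, at 107 and 76.1 CPM against 185 and 175 CPM. Without the barcodes carrying other transcripts, 11 of 21 tested genes were higher and 0 lower than in type 2 cells, so that call was not made again.

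Because many of these genes were higher together, their promoters were searched for the NF-kB consensus motif (length 10, both strands, overlapping matches counted separately) in RefSeq windows from 250 bases before to 50 after each start, in build GRCm38.p6. The motif was present in 1480 of 32851 promoters of all genes (4.51%), and in 11 of 22 promoters of the NF-kB list (9 of 18 matched genes). It was present in 4 of 11 of the chemokine list (36.4%, those of Ccl9, Cxcl1, Cxcl2 and Cxcl10). Ccl22, Ccl17 and Cxcl16 are not among these, and Ccl9 was lower than in type 2 cells. The migration and maturation list had it in 2 of 29 (6.90%, both of Tmcc3) and the costimulation list in 1 of 10 (10.0%, Tnfrsf9). Ccr7, Ccl5 and Relb are not in the table. Stretches around the match are shown for 5 genes whose values are given here, as examples from inside and outside the NF-kB list, 5′ to 3′ on the strand of the gene, with the match or the union of overlapping matches in capitals. A match in this window is a description of its letters and not a site of binding. They lie at chr12:55492648-55492696 (Nfkbia, minus strand), chr11:23771031-23771081 (Rel, minus), chr12:111166340-111166369 (Traf3, plus), chr10:94550818-94550867 (Tmcc3, plus) and chr4:150927936-150927986 (Tnfrsf9, plus), each upstream of its start.
Nfkbia: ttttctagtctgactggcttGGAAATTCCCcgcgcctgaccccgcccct
Rel: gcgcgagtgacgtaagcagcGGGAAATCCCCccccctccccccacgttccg
Traf3: cgcgcgcccaggcggcccgcGGGGATTTCC
Tmcc3: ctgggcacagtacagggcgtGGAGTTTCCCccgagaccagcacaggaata
Tnfrsf9: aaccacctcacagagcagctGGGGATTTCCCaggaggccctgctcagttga

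Antigen presentation went both ways. Of 14 MHC class II genes, 12 were lower and 1 higher than in type 2 cells, and 6 lower and 2 higher than in type 1 cells. Without the barcodes carrying other transcripts, 11 were lower and 0 higher than in type 2 cells, and 5 lower and 2 higher than in type 1 cells. H2-Aa was at 5350 and 5159 CPM, against 9871 and 9023 CPM in type 2 cells, and the invariant chain Cd74 at 11468 and 8439 CPM, against 20980 and 16332 CPM. H2-Ab1, which the rule required at 3 UMIs or more, was at 3421 CPM (3316 to 3529) and 3220 CPM (3056 to 3391), against 8787 and 8611 CPM. Ciita, the master transactivator of class II genes, was at 184 CPM (160 to 210) and 132 CPM (101 to 170), against 630 and 473 CPM in type 2 and 723 and 368 CPM in type 1 cells.

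The largest class II contrast was Marchf1, the ubiquitin ligase that removes MHC class II and CD86 from the surface of immature dendritic cells. It was at 23.8 CPM (15.8 to 34.4) and 26.9 CPM (13.9 to 46.9) in Ccr7 dendritic cells, against 299 and 305 CPM in type 2 and 746 and 435 CPM in type 1 cells. The peptide-exchange genes were low too, with H2-DMb1 at 81.6 and 112 CPM against 513 and 471 CPM in type 2 cells. Over all members, genes of the class I pathway were not lower than in type 2 cells: 9 of 18 were higher and 0 lower, and against type 1 cells 4 were higher and 2 lower. Without the barcodes carrying other transcripts, 11 of 19 were higher and 1 lower than in type 2 cells. Against type 1 cells 8 of 19 were then higher and 2 lower. H2-K1 was at 1788 and 1849 CPM, against 973 and 1156 CPM in type 2 cells, and Psme2, a subunit of the proteasome activator, at 611 and 811 CPM, against 141 and 182 CPM.

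The identity genes of both conventional classes were low. Of the cDC1 identity list of 18 genes, 15 of 17 tested were lower than in type 1 cells, with median log2 ratios of -3.32 and -2.38. The 15 include Xcr1 and Clec9a, whose UMIs define type 1 cells, so their lower levels follow from the class limits. Wdfy4, needed for cross-presentation, was at 156 and 114 CPM against 2790 and 1688 CPM, and Irf8, the cDC1 lineage factor, at 128 CPM (108 to 150) and 206 CPM (166 to 253) against 1450 and 1024 CPM. Batf3, the partner of Irf8 in cDC1 development, was not lower, at 211 and 199 CPM against 192 and 250 CPM. Of the cDC2 identity list of 22 genes, 10 of 20 tested were lower than in type 2 cells and 0 higher. The 10 include Cd209a, whose UMIs define type 2 cells. Mgl2 was at 63.8 and 44.8 CPM against 1048 and 534 CPM, Clec10a at 27.2 and 17.9 CPM against 585 and 348 CPM, both C-type lectins of cDC2, and the integrin Itgam at 40.8 and 20.2 CPM against 619 and 409 CPM. The cDC2-associated genes S100a4 (2096 and 2185 CPM) and Tmem176a (1240 and 1039 CPM) stayed near their type 2 levels of 1612 and 1904 CPM and 819 and 696 CPM, far above the type 1 levels of 53.7 and 179 CPM and 23.7 and 60.4 CPM.

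Remaining lineage transcripts divided the members. Among the 167 cells, UMIs of 7 cDC1 genes outnumbered those of 6 cDC2 genes in 59 of 92 primary and 48 of 75 chemoresistant cells, the reverse held in 24 and 8, and 9 and 19 were tied. Both kinds were present in 62 and 27 cells, so the split is a range and not a pair of types, and it was made after earlier values were seen. In the primary library Ccl17 was at 228 CPM (192 to 268) in cells leaning to cDC1 and 1232 CPM (1101 to 1373) in those leaning to cDC2, whereas Ccl5 was at 5948 CPM (5760 to 6141) and 1905 CPM (1741 to 2079). Il12b was at 104 CPM (80.7 to 133) in the former and had no UMI in the latter, which allows up to 14.0 CPM. However, it was seen in only 8 of the 92 primary cells, and a single cell held 42 of its 66 UMIs. The Il12b intervals do not cover that spread among cells. In the chemoresistant library Ccl17 was at 855 CPM (750 to 970) and 1917 CPM (1568 to 2320), and Ccl5 at 9515 CPM (9157 to 9883) and 6481 CPM (5824 to 7191). Ccl17 was thus higher in cDC2-leaning and Ccl5 in cDC1-leaning cells of both libraries, while Il12b, at 204 and 128 CPM, appeared in both kinds in the chemoresistant library. Only 8 cells stand behind the last group.

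Among the genes with the largest contrasts to both classes was Fabp5, a fatty acid binding protein, at 5619 CPM (5484 to 5756) and 4274 CPM (4085 to 4471) against 113 and 45.1 CPM in type 2 and 28.7 and 38.2 CPM in type 1 cells. Tbc1d4, a Rab GTPase regulator of vesicle traffic, was at 1269 and 1032 CPM, against 83.1 and 63.1 CPM in type 2 cells. Mreg, melanoregulin, was at 503 and 349 CPM, against 8.43 and 10.8 CPM. Col1a1, Col3a1 and Sparc met the same limit but came from the 9 barcodes: without them Col3a1 went from 709 and 338 CPM to 3.01 and 15.0 CPM. Of the genes passing against either class, 484 were higher than in both and 353 lower than in both.

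Between the libraries, Ccr7 dendritic cells of chemoresistant tumours had 339 of 5901 genes higher past 1.5-fold (5.74%) and 774 lower (13.1%), and the intervals of 1025 genes (17.4%) did not overlap. The median gene stood at -0.11 on the log2 scale, and after centring on it the counts were 551 higher and 517 lower. The split between higher and lower genes therefore depends on the scaling. Over the 167 cells, 317 of 5531 genes were higher (5.73%) and 642 lower (11.6%). The genes were partly others: 60.8% of the higher and 66.9% of the lower calls over all members were made again. Of 27 tested migration and maturation genes, which include those of the rule, 1 was higher and 5 lower, with a median of -0.19, and over the 167 cells 2 were higher and 7 lower, with a median of -0.24. More of the list was lower than the 13.1% and 11.6% of all genes, above all over the 167 cells. All genes had medians of -0.11 over all members and -0.10 over the 167 cells. Outside the rule, Tmem123 had a log2 ratio of -0.14, Cd40 of -0.31 and Cd274 of 0.12, each within 1.5-fold.

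The summed CPM of the CCR4 ligands and Ccl5 was higher in chemoresistant cells. Ccl22 is a gene of the rule, so its ratio is a description. The limit of 4 UMIs asks for more CPM of rule genes in shallower cells, and what this adds was not tested. Among single cells of the 167, the median of Ccl22 was 81.4 CPM in the primary and 90.5 CPM in the chemoresistant library. Ccl22 had a log2 ratio of 1.05, Ccl17 of 0.99 and Ccl5 of 0.94, with intervals apart, and over the 167 cells 1.01, 0.92 and 0.87. Type 1 cells had log2 ratios of 1.39, 0.32 and 0.69 for the same genes, and type 2 cells of 0.00, -2.45 and 1.85. So Ccl5 was higher in the chemoresistant library in all the dendritic classes, and Ccl17 went the other way in type 2 cells. Ccl5 was higher also in macrophages and T cells, by 1.06 and 2.15. Of the chemokine list, 4 of 11 tested genes were higher and 3 lower, and over the 167 cells 4 of 9 were higher and 1 lower. The fourth higher gene, Ccl4, went from 11.1 to 101 CPM, but 5 cells held 97.8% of its chemoresistant UMIs. Cxcl10 went from 91.8 to 22.4 CPM, and without the 9 barcodes its log2 ratio was 0.32.

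Il12b had a log2 ratio of 0.83 between the libraries, and 1.43 over the 167 cells, at 66.1 and 212 CPM. The share of cells with a UMI was higher in the shallower library, with and without thinning. After thinning, 0 of 278 primary tumour cells held Il12b, which allows up to 1.08%, and 0.0516% of chemoresistant ones. Il15 had a ratio of 0.59, with intervals that overlap at their edges, and of 0.51 after thinning, within 1.5-fold. Irf8 was at 0.62, and lay within 1.5-fold when doublets were removed, at 0.44. Bcl2a1b, a survival gene of the Bcl2 family, was at 1072 CPM (1014 to 1133) and 1534 CPM (1421 to 1653), and its near-identical copies Bcl2a1a and Bcl2a1d at 287 and 455 and at 691 and 978 CPM. Reads of these copies may be shared among them, so their levels apart are uncertain.

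Of the NF-kB list, 0 of 21 tested genes were higher and 7 lower in the chemoresistant library, with a median log2 ratio of -0.49. Over the 167 cells 8 were lower, and the median was -0.51. Birc3, a relative of Birc2, went from 454 CPM (416 to 494) to 208 CPM (168 to 255), Traf3 from 249 CPM (221 to 279) to 110 CPM (81.2 to 145), and Bcl3 from 112 CPM (93.9 to 133) to 38.1 CPM (22.2 to 60.9). Nfkbia had a ratio of -0.73 and Traf1 of -0.63, and both lay within 1.5-fold after thinning, at -0.28 and -0.25. The same genes were lower in type 2 cells, with ratios of -1.91 for Nfkbia, -1.35 for Traf1 and -1.13 for Birc3. In type 1 cells those ratios were -0.28, -0.40 and -0.50. Relb, at -0.36, was not past 1.5-fold in Ccr7 dendritic cells.

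Other single genes were lower in the chemoresistant library. Icam1, the ligand of the T cell integrin LFA-1, went from 207 CPM (181 to 234) to 73.9 CPM (50.9 to 104), and Gpr183 from 424 CPM (388 to 463) to 184 CPM (146 to 228). A UMI of Icam1 was found in 69 of 92 and 27 of 75 cells, and after thinning in 39.1% and 23.7%, against 15.8% and 9.96% of tumour cells. Siglecg, an inhibitory lectin, went from 85.9 CPM (69.9 to 104) to 20.2 CPM (9.21 to 38.3). Nrp2, a semaphorin receptor that bears on the response to CCL21, went from 174 to 49.3 CPM and was at most 19.3 CPM in type 1 and type 2 cells. Tmcc3, at -0.82 (-0.52 after thinning), and Dpp4 (CD26, an ectopeptidase that trims chemokines), from 539 CPM (498 to 583) to 260 CPM (215 to 312), were lower too. Icam1, Gpr183 and Siglecg were also lower in type 1 and type 2 cells, with ratios between -1.47 and -0.56.

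**Figure D4:**
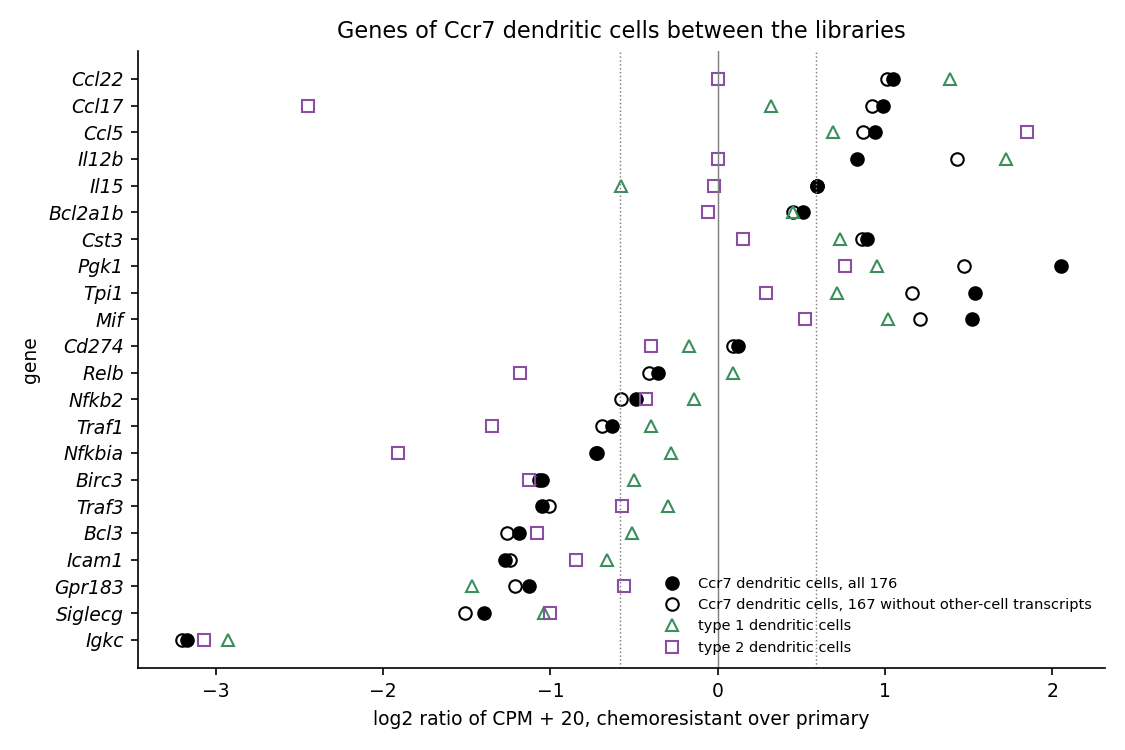
Log2 ratio of CPM plus 20, chemoresistant over primary, for 22 genes in all 176 Ccr7 dendritic cells (filled circles), in the 167 without barcodes carrying other transcripts (open circles), in type 1 cells (triangles) and in type 2 cells (squares); dotted lines mark 1.5-fold. Ccl22, Ccl17 and Ccl5 lie to the right and Icam1, Gpr183 and Siglecg to the left, while Ccl17 in type 2 cells lies far to the left at -2.45.

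Genes of glycolysis and hypoxia were higher in chemoresistant Ccr7 dendritic cells: 16 of 20 tested and 0 lower, with a median log2 ratio of 0.92. Over the 167 cells 9 of 19 were higher and 0 lower, and the median was 0.50, so the single chemoresistant barcode with 46290 UMIs and the primary ones set aside with it move this count by over 1.5 times. Pgk1, a glycolytic kinase, was at 96.1 CPM (79.2 to 116) and 459 CPM (398 to 526), with a ratio of 2.05, or 1.47 without those barcodes. Mif, a cytokine and hypoxia target, was at 261 and 784 CPM, with a ratio of 1.52, or 1.21 without them. Tpi1, triose phosphate isomerase, had ratios of 1.54 and 1.16. Ldha, which turns pyruvate to lactate, had ratios of 0.89 and 0.22. Pgk1 and Mif were also higher in type 1 cells, by 0.95 and 1.02, and Pgk1 in tumour cells, by 0.85.

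Levels of other cell types' markers moved with these results in part. The 12 tumour epithelial markers summed to 208 CPM in primary and 374 CPM in chemoresistant members, or 79.2 and 275 CPM without the 9 barcodes, against 88.6 and 270 CPM in type 1 cells. The 7 fibroblast genes summed to 2490 and 1046 CPM, or 24.1 and 40.0 CPM without them. The B cell list summed to 389 and 49.3 CPM, against 517 and 110 CPM in type 1 cells, and the neutrophil list to 337 and 38.1 CPM, against 365 and 356 CPM in type 1 and 456 and 299 CPM in type 2 cells. The neutrophil sum was thus much lower in chemoresistant Ccr7 dendritic cells without a like gap in type 1 cells. The single gene Il1r2 went from 180 to 8.96 CPM in these cells, and was at 211 and 83.0 CPM in type 2 cells. Without the 9 barcodes, 5 cells held 91.8% of its primary UMIs. Whether the gap in the sum stands for neutrophil transcripts was not tested. The macrophage list summed to 1173 and 797 CPM. What these transcripts add to the differences between the libraries was not tested.

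Of the 12 genes lowest in the chemoresistant library by ratio, several came from those barcodes. Mgp, a matrix protein, had a ratio of -5.51 over all members and -0.15 over the 167 cells, and Hba-a2, an alpha globin, had -3.69 and 1.00. Of the 12, 7 were still tested over the 167 cells and 3 of those were lower past 1.5-fold, among them Igkc and Cmss1. Igkc, the kappa light chain constant gene, was at 241 and 8.96 CPM, and at 238 and 13.8 CPM in type 1 cells. Cmss1 went from 1486 to 121 CPM, and in type 1 cells from 1898 to 166 CPM. The 12 highest stayed past 1.5-fold over the 167 cells. Ndufa4l2 did so on 18 chemoresistant UMIs in 3 cells, and the intervals of Eif4ebp1 then overlapped. Dmkn and Tm4sf1, at 1928 and 2659 CPM in chemoresistant tumour cells, were also higher in type 1 cells (1.30 and 1.06) and type 2 cells (1.18 and 1.35). The 12 included Lgals1, which encodes galectin 1, from 525 to 2747 CPM. Over the 167 cells it went from 178 to 767 CPM, and 5 cells held 49.5% of its chemoresistant UMIs. Lgals7, at 20.4 and 141 CPM, was higher to a like extent in type 1 cells, at 16.8 and 110 CPM.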

How the data were processed

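Both libraries were deposited as gene-by-barcode matrices of UMI counts. Per the submitters' processing notes, the counts were made with Cell Ranger 8.0.1 on mm10. The treatment of intronic reads is not stated. The libraries held 14390 and 16390 barcodes and 141334623 and 158118781 UMIs. Barcodes with at least 250 genes and at most 20% mitochondrial UMIs were kept. Classes were set by transcripts, not clusters, so their shares depend on these limits. Counts were summed per class and library, with exact Poisson 95% intervals for CPM and exact Clopper-Pearson intervals for shares, which cover counting error only. A gene was called past 1.5-fold on the log2 scale of CPM plus 20, with a mean of at least 20 CPM. Named genes were those of the rule, the 12 with the largest ratios each way with a mean of at least 50 CPM, and for each of 34 gene lists its defining members and those with the largest ratios. Genes outside these (Nrp2 and genes given because they set off a list) were chosen after their values were seen. Members and lists were chosen with earlier results of these data known. A total of 26 genes share a symbol with another and were kept apart by identifier, and 4 list symbols were not found. Scrublet's automatic limit marked 304 primary and 0 chemoresistant barcodes, so it did not work in the latter, and the alternative removes the highest scores instead, 10.3% and 11.9% of barcodes. Alternatives changed the member rule, added CPM, mean limit, scaling and depth. The scripts were tested on simulated counts. Python 3.11.15, numpy 2.4.6, scipy 1.17.1, pandas 2.3.3, scanpy 1.11.5 and matplotlib 3.10.9 were used.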

Additional observations from a re-analysis of the deposited data

Results flagged for a closer look

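In 4 genes the difference between the libraries went 1 way in Ccr7 dendritic cells and the other way in type 2 cells. Ccl17 had a log2 ratio, chemoresistant over primary, of 0.99 in Ccr7 dendritic cells and -2.45 in type 2 cells, and 0.92 in the former without the 9 barcodes carrying other transcripts. Ccl4, an inflammatory chemokine, had 1.96 and -2.56, and 2.09 without them, and 5 cells held 97.8% of its chemoresistant UMIs. Ltb, which encodes lymphotoxin beta, had -0.68 and 0.61, and -0.74 without them. Mrc1, the mannose receptor, had 1.11 and -0.60, and 1.15 without them. The difference between the classes was not tested for any of these genes, since each group is 1 library.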

How the results depend on the processing

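No paired analysis was possible because each group is 1 library, and for the same reason no replicate could be left out. With a mean limit of 100 CPM, the genes past 1.5-fold numbered 266 higher and 261 lower against type 1 cells, 258 and 280 against type 2 cells, and 115 and 203 between the libraries. Between the libraries they numbered 543 and 1187 with 5 CPM added, 171 and 339 with 50 CPM added, 1210 lower with a mean limit of 5 CPM, 551 higher after centring and 572 higher with totals without mitochondrial and ribosomal protein genes. A stricter member rule left 55 cells in each library, 0.429% and 0.369% of barcodes and 13.9% and 17.9% of dendritic cells. Excluding cells with B-lineage transcripts gave a primary share of 0.593%, and thinning 0.613%. Of the genes called between the libraries, thinning kept 44.5% of the higher and 61.5% of the lower ones. The stricter rule kept 55.5% and 63.2%, and the mean of CPM over single cells 45.1% and 64.2%. Against type 2 cells thinning kept 78.2% and 83.6%, and against type 1 cells 76.3% and 83.4%. After doublet removal the log2 ratio of Il1b was 0.04 against -0.76 as reported, and without barcodes carrying other transcripts that of Cxcl10 was 0.32 against -1.40 and that of Hba-a2 1.00 (0.66 under the stricter rule) against -3.69. Over all alternatives, 47 values of named genes between the libraries no longer passed 1.5-fold and 39 newly passed, against 13 and 12 for the comparison with type 1 and 20 and 14 with type 2 cells. The cause was not tested. The chemoresistant members' 446608 UMIs limit genes near 20 CPM, where 1 UMI is worth over 2 CPM.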

Other observations

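Survival genes, interferon response genes and lysosomal genes were not described above. Of 21 apoptosis regulators, 9 of 18 tested were higher and 2 lower than in type 2 cells, and 8 of 17 higher and 0 lower than in type 1 cells. Bcl2 itself was low, at 8.50 and 8.96 CPM in primary and chemoresistant Ccr7 dendritic cells against 75.3 and 72.1 CPM in type 2 cells. Of the type I interferon list, 2 of 23 tested were higher and 4 lower than in type 2 cells, and between the libraries 5 of 23 were higher and 0 lower. Among the higher ones Oasl1 went from 8.50 to 85.1 CPM, with 92.1% of its chemoresistant UMIs in 5 cells.

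Lysosomal genes divided. Lamp1, a lysosomal membrane protein, was at 489 and 439 CPM against 228 and 213 CPM in type 2 cells, whereas Psap, the precursor of sphingolipid activators, was at 417 and 616 CPM against 1048 and 1167 CPM. Cst3, an inhibitor of cathepsins, was at 7270 CPM (7117 to 7426) in primary and 13486 CPM (13148 to 13831) in chemoresistant cells, a log2 ratio of 0.89, and in type 1 cells the ratio was 0.73. Nuclear-encoded respiratory chain genes did not set the cells apart: 0 of 30 passed 1.5-fold against type 2 cells in either direction. Il7r, which forms the TSLP receptor with Crlf2, was at 203 CPM (178 to 231) and 148 CPM (114 to 188), against 33.7 and 27.1 CPM in type 2 cells.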
